A study of Homo sapiens with 5 samples.

Results

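Adherens junctions join neighbouring cells through cadherins, transmembrane proteins whose tails bind the catenins. Beta-catenin, the product of CTNNB1, sits on the cadherin tail, alpha-catenin (CTNNA1) and vinculin (VCL) tie it to actin, and p120-catenin (CTNND1) keeps cadherins at the cell surface. The pool of beta-catenin outside junctions is marked for degradation by a destruction complex or, where it escapes, enters the nucleus and works with TCF/LEF factors in Wnt signalling. In skeletal muscle precursors, M-cadherin (CDH15), N-cadherin (CDH2) and R-cadherin (CDH4) take part in contacts between myoblasts.

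Messenger RNA of 9 genes of this system was examined: CTNNB1, CTNNA1, CTNND1, plakoglobin (JUP), CDH2, CDH4, CDH11, CDH15 and VCL, named by symbol. A row was found for 7 of them among the 13822 genes of the table, and JUP and CDH11 were not analysed here. All 7 passed the filter on low values, a mean FPKM (fragments per kilobase of exon, scaled to the library's reads) of at least 0.1 over the libraries, as did 13681 genes in all.

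The libraries came from RH4, an established human cell line of alveolar rhabdomyosarcoma, a tumour with features of skeletal muscle. Every culture received a siRNA at 30 nM, had its medium replaced after 24 h and was harvested 24 h later. The 3 si-SCR libraries come from cells given the control siRNA, and the 2 si-circVAMP3 libraries from cells given a siRNA to circVAMP3, a circular RNA made from the VAMP3 gene. The comparison asks how RNA levels differ after this knock-down. The study's methods call the libraries biological replicates, and p-values here measure the spread between them. Reads in the listed genes, recovered from the FPKM, came to 26441490, 25046768 and 24934487 in si-SCR 1 to 3 and to 18625463 and 28818756 in si-circVAMP3 1 and 2.

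The siRNA is shown because it defines the treated group. Its sense strand holds 19 bases of the back-splice junction followed by an overhang, with the part from exon 3 in capitals below. In the GRCh38 annotation this VAMP3 transcript has exon 3 at chr1:7777160-7777318 and exon 4 at chr1:7778118-7778169, both on the plus strand, and the circle of these exons is 211 bases long. The second line gives 15 bases on each side of the junction, with the 19 bases matched by the siRNA in capitals.
si-circVAMP3: caucaucgGUGGUGGACAUuu
back-splice junction of exon 4 to exon 3: tcatcatCATCATCGGTGGTGGACATaatg
The longest run of bases that the 19-base strand or its reverse complement shared with any annotated transcript of the 7 genes was 9, in CTNNB1 and VCL.

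circVAMP3 itself has no row in a table of gene-level values, so no level is given for it. VAMP3, which encodes a vesicle SNARE protein, had FPKM of 36.4, 35.4 and 37.4 in the si-SCR libraries and 29.4 and 30.2 in the si-circVAMP3 libraries. The groups did not overlap, and the log2 fold change on the log2(FPKM + 0.1) scale was -0.29 (SE 0.044, adjusted p = 0.00507, limma with Benjamini-Hochberg adjustment over all genes tested). Without si-circVAMP3 1 the adjusted p was 0.0525, the highest of 15 alternatives that otherwise kept it between 0.00283 and the threshold of 0.05. This gene-level value comes from polyadenylated RNA, which favours the linear mRNA over a closed circle, though reads of the linear and circular forms were not separated. By qRT-PCR the paper reported a small but significant fall of linear VAMP3 RNA with this siRNA.

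The libraries of each group lay together on the first principal component, which held 62.1% of the variance of the log2 values. The second, with 18.6%, set si-SCR 3 (-16.7) apart from si-SCR 1 (12.5) and si-SCR 2 (6.18). Calls that change without si-SCR 3 are given beside the results they touch.

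Markers of the line's lineage were abundant. DES, the muscle intermediate filament desmin, had 291.5, 291.0 and 249.1 FPKM in si-SCR and 265.7 and 248.1 in si-circVAMP3, with an adjusted p of 0.350 (limma) and of 0.0308 without si-SCR 3. Of 12 alveolar rhabdomyosarcoma and muscle markers 11 had a row, and their summed FPKM was 1053, 1036 and 889 in si-SCR and 850 and 869 in si-circVAMP3. In this list 3 of 11 genes tested were called lower and none higher. Among all genes tested 14.7% were called lower and 27.5% in either direction. The 3 were MYOG, FOXO1 and NCAM1, named after their values were seen. MYOG, a transcription factor of myoblast differentiation, had 175.4, 178.6 and 149.0 FPKM in si-SCR and 100.7 and 96.6 in si-circVAMP3 (log2 fold change -0.76, SE 0.081, adjusted p = 0.00159, limma). MYOD1, another transcription factor of the muscle lineage, named after its values were seen, had a log2 fold change of 0.20 and was not called (adjusted p = 0.320, limma). With 1 library left out this value ran from 0.068 to 0.33. FOXO1 was called at an adjusted p of 0.0259, and lost the call without si-SCR 2 (0.0874) and without si-circVAMP3 1 (0.161) or 2 (0.0819). NCAM1 was called at an adjusted p of 0.0105 and lost the call without si-circVAMP3 1 (0.0690) or 2 (0.0777). Without si-SCR 3 the list had 6 genes called, all lower, with DES, CDH15 and FGFR4 added. In that fit 29.3% of all genes tested were called in either direction. FGFR4, a growth factor receptor gene named after its values were seen, was at an adjusted p of 0.103 with all libraries and 0.00419 without si-SCR 3.

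Markers of other cell types were scarce. No row was found for any of 4 blood markers, and 1 of 5 endothelial markers, PECAM1, was listed, at 0.0777 to 0.153 FPKM. Of 6 epithelial markers KRT8 and CLDN4 were listed, with summed FPKM of 0.420, 0.309 and 0.384 in si-SCR and 0.892 and 0.846 in si-circVAMP3. KRT8, a keratin and the more abundant of the pair, rose by a log2 fold change of 0.99 (adjusted p = 0.00706, limma), with 0.0604 without si-circVAMP3 1, and by 0.36 with a pseudocount of 1. The 4 listed of 6 fibroblast markers summed to 1.92 to 2.10 FPKM. PDGFRA had 0.757 to 0.882 FPKM, and PDGFRB, named after its values were seen, was called higher at an adjusted p of 0.0495 and was not called without any 1 library (up to 0.195), with either other pseudocount or with a robust prior variance (up to 0.0534). Of 4 neural crest or glial markers CDH19 was listed, at 0.157 to 0.321 FPKM. Whether these values come from the RH4 cells or from other cells, and any part of such cells in the results below, was not tested.

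Across all genes tested, 3767 of 13681 (27.5%) were called at an adjusted p under 0.05, 1758 higher (12.8%) and 2009 lower (14.7%) in si-circVAMP3. With an absolute log2 fold change of at least 0.58 as well, 793 remained, 227 higher and 566 lower. With each library centred on its median the larger number of calls was on the other side, 2022 higher and 1811 lower. Without si-SCR 2 the count was 2157, and without si-circVAMP3 1 or 2 it was 1277 or 1267. Of the 7 junction genes 2 were called, CTNNB1 lower and CDH4 higher. Without si-SCR 3, where 29.3% of genes tested were called, CDH15 and VCL were called lower as well, making 4.

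CTNNB1, on the plus strand of chromosome 3 (chr3:41194741-41260096), encodes beta-catenin. Its FPKM was 51.4, 52.7 and 53.7 in the si-SCR libraries and 35.4 and 33.2 in the si-circVAMP3 libraries. The groups lay far apart compared with the spread inside each, with means of 52.6 ± 1.17 (SD, n = 3) and 34.3 ± 1.57 (SD, n = 2). The mean fell by 34.9%, a log2 fold change of -0.62 (SE 0.046, 95% interval -0.73 to -0.51, adjusted p = 0.000469, limma). By size this change ranked 760 among the genes tested. It was called under all 15 alternatives, with log2 fold changes from -0.66 to -0.57. The gene rested on 7714 to 16126 recovered reads a library. Fewer cells with the transcript and less of it per cell cannot be told apart in these bulk libraries.

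The other catenins had smaller differences. CTNNA1, the alpha-catenin gene, had 19.9, 19.0 and 19.3 FPKM in si-SCR and 18.2 and 17.8 in si-circVAMP3. Every si-circVAMP3 value was below every si-SCR value, but the log2 fold change of -0.10 (SE 0.045, 95% interval -0.21 to 0.0038) did not pass the test (adjusted p = 0.135, limma). CTNND1, the p120-catenin gene, had 1.59, 1.64 and 1.43 FPKM in si-SCR and 1.87 and 1.63 in si-circVAMP3, and the groups overlapped. Its log2 fold change was 0.16 (SE 0.11, adjusted p = 0.314), and leaving out si-circVAMP3 1 or 2 gave 0.068 or 0.26. The level of CTNND1 is uncertain. In the annotation used here 39.1% of its exon bases also belong to 1 other gene on the same strand and 12.7% to another. Such reads may not have been counted for it. The annotation the authors counted with may differ, and the overlap in it was not examined.

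CTNNB1 per CTNNA1, a ratio of FPKM, was 2.59, 2.78 and 2.79 in si-SCR and 1.94 and 1.87 in si-circVAMP3. The groups did not overlap. An exact two-sided permutation test gave p = 0.2, the smallest value that the 10 splits of 5 libraries allow. This test could not have reached the threshold of 0.05, whatever the values.

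**Figure D1:**
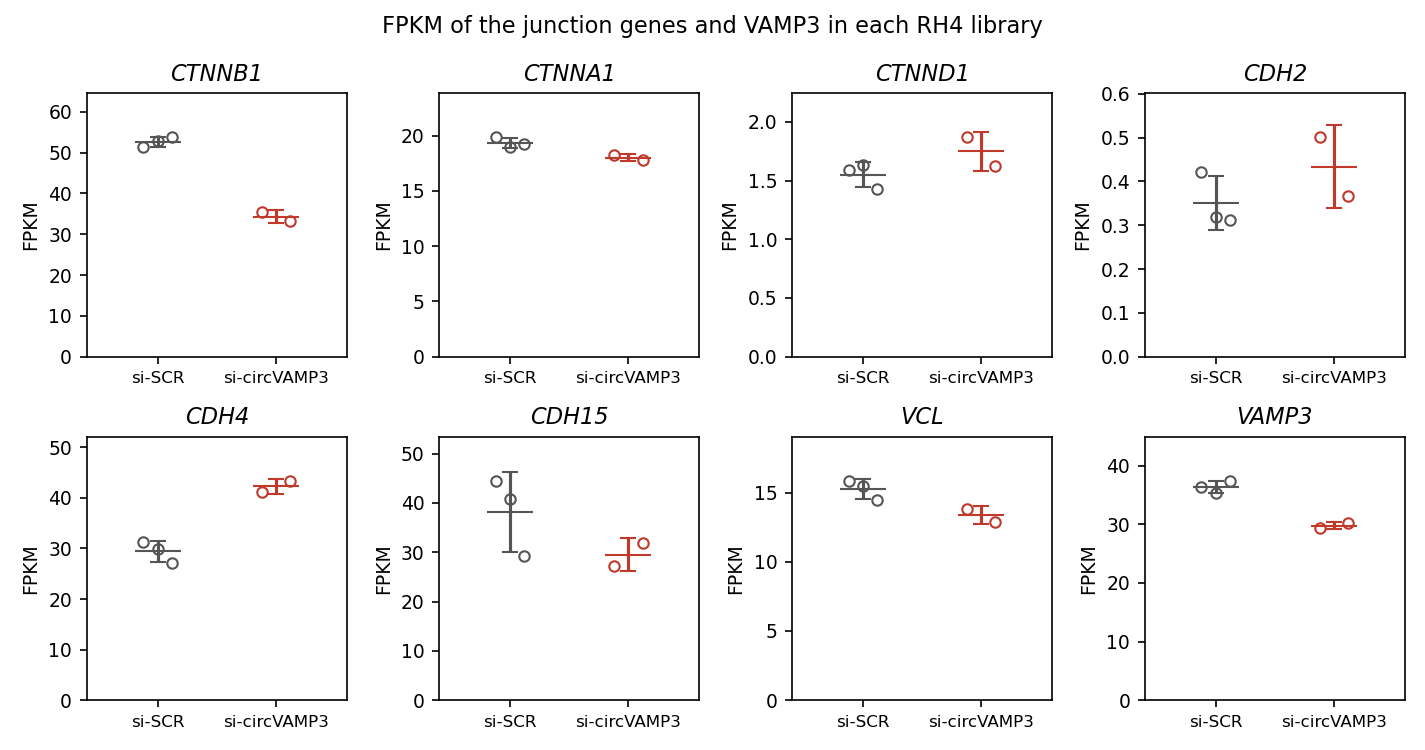
FPKM of each junction gene and of VAMP3 (vertical axes, each starting at 0) in 3 si-SCR and 2 si-circVAMP3 RH4 libraries (horizontal axes); open circles are libraries, dashes are means and bars are 1 SD. CTNNB1 is lower in both si-circVAMP3 libraries (35.4 and 33.2) and CDH4 higher (41.1 and 43.4), while the CDH15 groups overlap through si-SCR 3 (29.1).

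Of the 3 cadherin genes CDH4 passed the test, and CDH15 and CDH2 did not. CDH4, the R-cadherin gene on the plus strand of chromosome 20 (chr20:61252261-61940617), had 31.3, 29.9 and 27.2 FPKM in si-SCR and 41.1 and 43.4 in si-circVAMP3. Both si-circVAMP3 libraries lay above all si-SCR libraries, with means of 29.5 ± 2.06 (SD, n = 3) and 42.2 ± 1.57 (SD, n = 2). The mean was 43.4% higher, a log2 fold change of 0.52 (SE 0.066, 95% interval 0.36 to 0.68, adjusted p = 0.00275, limma). It was called under all 15 alternatives, between 0.47 and 0.57.

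CDH15, the M-cadherin gene on the plus strand of chromosome 16 (chr16:89171748-89195492), had 44.5, 40.9 and 29.1 FPKM in si-SCR and 27.1 and 31.8 in si-circVAMP3. The value of si-SCR 3 fell between those of the si-circVAMP3 libraries, so the groups overlapped. The log2 fold change was -0.35 (SE 0.17, 95% interval -0.76 to 0.060, adjusted p = 0.177, limma). Without si-SCR 3 it was -0.54 and was called (adjusted p = 0.00577), and over all alternatives the adjusted p ran from 0.00577 to 0.535. Whether CDH15 was called depended on si-SCR 3 being in the fit.

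CDH2, the N-cadherin gene, was the least abundant of the 7. It had 0.421, 0.319 and 0.311 FPKM in si-SCR and 0.501 and 0.367 in si-circVAMP3, and the groups overlapped. At the recovered length these values stand for 36 to 52 reads a library, and 36 reads have an exact Poisson 95% interval of 25.2 to 49.8, for counting error only. The log2 fold change was 0.24 (SE 0.18, 95% interval -0.19 to 0.67) and did not pass the test (adjusted p = 0.359, limma). It was 0.061 without si-circVAMP3 1 and 0.42 without si-circVAMP3 2.

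VCL encodes vinculin, which links junctions and focal adhesions to actin. Its FPKM was 15.9, 15.5 and 14.5 in si-SCR and 13.8 and 12.9 in si-circVAMP3. The groups did not overlap, yet the log2 fold change of -0.19 (SE 0.060, 95% interval -0.33 to -0.044) missed the threshold after adjustment (adjusted p = 0.0593, limma). Without si-SCR 3 the log2 fold change was -0.23 and was called (adjusted p = 0.0239), and over all alternatives the adjusted p ran from 0.0239 to 0.295.

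**Figure D2:**
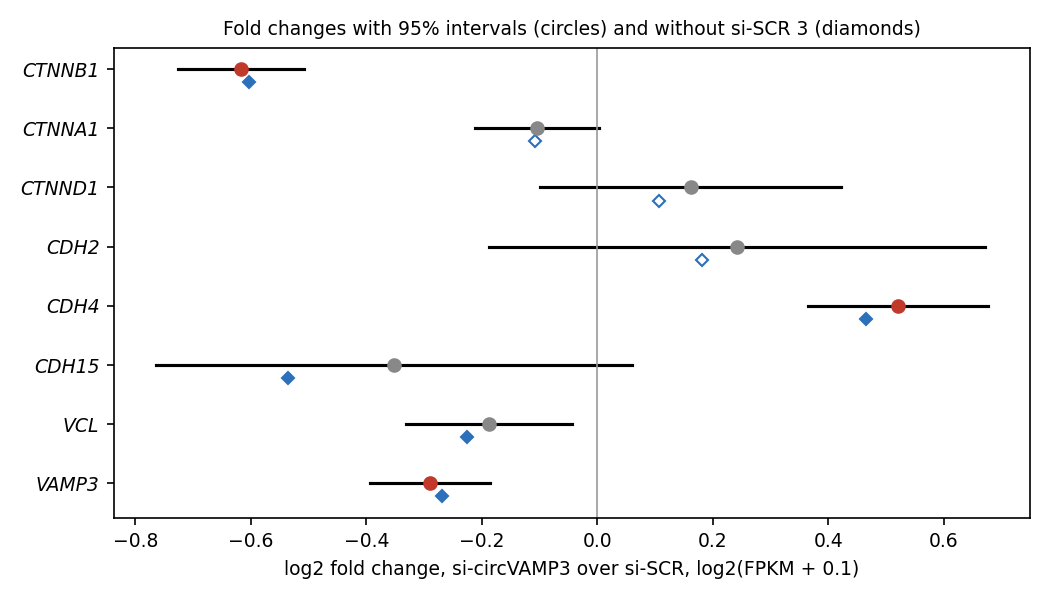
Log2 fold change of each gene, si-circVAMP3 over si-SCR, on the log2(FPKM + 0.1) scale (horizontal axis); circles with bars are limma estimates with 95% intervals, red where the adjusted p is under 0.05, and diamonds are estimates without si-SCR 3, filled where called. CTNNB1 (-0.62) and CDH4 (0.52) are called both ways, and CDH15 moves from -0.35 to -0.54 without si-SCR 3.

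Set in order of mean FPKM, the si-SCR libraries had CTNNB1 (52.6), CDH15 (38.2), CDH4 (29.5), CTNNA1 (19.4), VCL (15.3), CTNND1 (1.55) and CDH2 (0.351). In this order the neighbours CDH15 and CDH4 had overlapping ranges, 29.1 to 44.5 and 27.2 to 31.3. In the si-circVAMP3 libraries CDH4 came first (42.2), followed by CTNNB1 (34.3) and CDH15 (29.5), with the rest in the same order, and no neighbouring ranges overlapped. Such levels depend on the exon length by which reads were divided. In recovered reads, not divided by length, CTNNB1 was above CDH4 in si-circVAMP3 1 (7714 against 5730) and si-circVAMP3 2 (11236 against 9385). The length recovered from the values was 11759 bases for CTNNB1, 7516 for CDH4 and 4647 for CDH15. These equal the annotated exon bases, as do those of CTNNA1 and VCL. For CTNND1 and CDH2 the recovered lengths, 9787 and 4634, are the shortest that give whole reads and differ from the annotation used here (15212 and 8583), so their true lengths and reads may be multiples of those given.

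The cadherin sum, of CDH2, CDH4 and CDH15, was 76.2, 71.0 and 56.7 FPKM in si-SCR and 68.8 and 75.5 in si-circVAMP3. These sums overlapped, and the difference of 4.20 FPKM between the means turned to -1.44 without si-SCR 3 (exact two-sided permutation p = 1 with all libraries). The make-up of the sum differed more. CDH4 made up 41.1%, 42.0% and 48.0% of it in si-SCR and 59.8% and 57.4% in si-circVAMP3, while CDH15 made up 58.4%, 57.5% and 51.4% and then 39.5% and 42.1%. CDH2 was between 0.450% and 0.728% in every library. Per CTNNB1, the cadherin sum was 1.48, 1.35 and 1.05 in si-SCR and 1.94 and 2.28 in si-circVAMP3. Neither the CDH4 share nor this ratio overlapped between the groups. The exact permutation test gave p = 0.2 for each, the smallest value it allows, so it could not reach the threshold of 0.05.

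**Figure D3:**
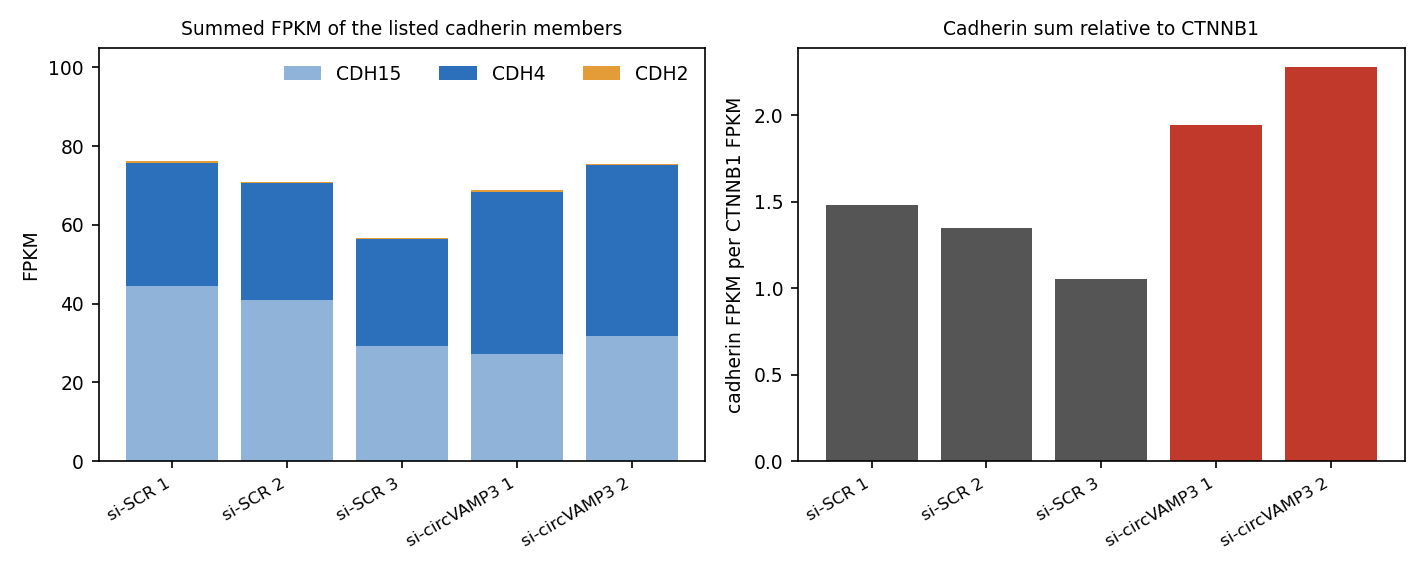
Left, FPKM of CDH15, CDH4 and CDH2 stacked for each library; right, that sum divided by CTNNB1 FPKM, with si-SCR in grey and si-circVAMP3 in red. CDH4 takes 59.8% and 57.4% of the sum in si-circVAMP3, and the ratio to CTNNB1 is 1.94 and 2.28 there against 1.05 to 1.48 in si-SCR.

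The genes whose log2 profiles over the 5 libraries lay nearest that of CTNNB1, by the root mean square difference of deviations from each gene's own mean, were KLHDC3 (0.0116), NBPF1 (0.0150), HDLBP (0.0220), GNG12 (0.0220) and IFT80 (0.0228). Their log2 fold changes ran from -0.63 to -0.62, close to that of CTNNB1 because the genes were chosen for this nearness. NBPF1 belongs to a family of near-identical copies, so its reads are uncertain. Among the junction genes VCL was nearest (0.219) and CDH4 farthest (0.567).

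The surroundings of the 7 genes were read from 10 lists holding 155 genes, of which 113 were tested. In these lists 40 genes were called (35.4%, against 27.5% of all genes tested), 17 higher and 23 lower. The lists were chosen with earlier results of these data known and hold the 7 junction genes too. The share therefore describes the lists and is no test of enrichment. Over all genes tested 12.8% were called higher and 14.7% lower, the background for each list below. The median log2 fold change was -0.0085, against 0.0030 over all genes tested. The number called was 22 without si-SCR 2, 15 without si-circVAMP3 1 and 16 without si-circVAMP3 2.

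Of 7 catenins and armadillo relatives tested CTNNB1 was the 1 called. Without si-SCR 3 the count was 2, with PKP1, a plakophilin gene named after its values were seen, at -0.72 (adjusted p = 0.00812, limma) against -0.52 (adjusted p = 0.1) with all libraries. The count was also 2 with limma-voom on the recovered reads of all libraries, with PKP1 at -0.57 (adjusted p = 0.0483, limma-voom). Of 9 cadherins tested 3 were called. CDH24, a type II cadherin, had 2.66, 2.38 and 2.09 FPKM in si-SCR and 3.47 and 3.55 in si-circVAMP3 (log2 fold change 0.55, SE 0.11, adjusted p = 0.0134, limma). CDH19, also type II, had 0.295, 0.321 and 0.298 FPKM in si-SCR and 0.189 and 0.157 in si-circVAMP3 (log2 fold change -0.57, SE 0.15, adjusted p = 0.0291). The third was CDH4, and without si-SCR 3 CDH15 made 4. Without si-circVAMP3 1 or 2 the count was 1. CDH24 lost its call without either si-circVAMP3 library (adjusted p up to 0.0893). CDH19 lost it without any 1 library other than si-SCR 3 (up to 0.152) and after quantile normalization (0.0523), and its log2 fold change was -0.15 with a pseudocount of 1.

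Among actin linkers and the nectin system 10 of 19 genes were called, 3 higher and 7 lower, with a list median of -0.12, and without si-SCR 2, si-circVAMP3 1 or si-circVAMP3 2 the count was 4, 4 or 5. Without si-SCR 3 it was 12, 3 higher and 9 lower, with VCL and ACTN4 (adjusted p = 0.0417, limma, against 0.863 with all libraries) added. ACTN4 was named after its values were seen, and its log2 fold change ran from -0.15 to 0.041 over the alternatives. VASP, of the Ena/VASP family, which promotes actin filament growth, had 25.4, 24.7 and 24.1 FPKM in si-SCR and 41.1 and 41.9 in si-circVAMP3, a log2 fold change of 0.74 (SE 0.043, adjusted p = 0.000202, limma). ENAH, of the same family, had 26.4, 27.2 and 27.3 FPKM in si-SCR and 16.5 and 16.8 in si-circVAMP3, a log2 fold change of -0.69 (SE 0.042, adjusted p = 0.000241). Zyxin (ZYX), a LIM protein of actin-anchored adhesions, had 30.1, 29.7 and 27.0 FPKM in si-SCR and 19.0 and 17.5 in si-circVAMP3 (log2 fold change -0.66, SE 0.065, adjusted p = 0.00121). VASP, ENAH and ZYX were called under all 15 alternatives. EVL, a relative of VASP and ENAH named after its values were seen, had a log2 fold change of -0.30 (adjusted p = 0.0321) and lost its call without any 1 library other than si-SCR 3 (adjusted p up to 0.143).

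Of 14 vinculin partners at focal adhesions 5 were called, 1 higher and 4 lower. Integrin-linked kinase (ILK) had 30.6, 33.8 and 35.6 FPKM in si-SCR and 24.4 and 21.9 in si-circVAMP3 (log2 fold change -0.53, SE 0.077, adjusted p = 0.00455, limma). Talin 2 (TLN2), which couples integrins to actin, fell by 0.44 on the log2 scale (adjusted p = 0.0113), and paxillin (PXN), a scaffold, rose by 0.35 (adjusted p = 0.0245). LIMS1 (-0.29) and RAPH1 (-0.16) were the others lower, named after their values were seen. Without si-circVAMP3 1 or 2 the adjusted p was 0.0691 or 0.0791 for TLN2, 0.128 or 0.117 for PXN and 0.106 or 0.078 for LIMS1, which was at 0.0618 without si-SCR 2. PXN also lost its call without the intensity trend (0.0556). RAPH1 was called in 6 of 15 alternatives, not under median centring, quantile normalization or a fit without the trend (adjusted p from 0.0234 to 0.262), and without any 1 library it was not called.

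Of 15 genes of cadherin processing, shedding and turnover 3 were called. The tyrosine kinase FER fell by 0.32 on the log2 scale (adjusted p = 0.0303, limma). IQGAP1, a scaffold that binds beta-catenin, rose by 0.17 (adjusted p = 0.0341), and APH1A, a gamma-secretase subunit, by 0.15 (adjusted p = 0.0320). All 3 lost the call without any 1 library other than si-SCR 3, with adjusted p up to 0.138, 0.181 and 0.180. Without the intensity trend IQGAP1 (0.0821) and APH1A (0.101) lost it too, as did APH1A after quantile normalization (0.0550). Without si-SCR 3 the count was 4, with PSENEN, another gamma-secretase subunit named after its values were seen, at an adjusted p of 0.0255 (0.0586 with all libraries).

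In the destruction complex of beta-catenin 5 of 12 genes were called, 4 higher and 1 lower. BTRC, the substrate receptor of the ubiquitin ligase that takes up phosphorylated beta-catenin, had 11.3, 10.9 and 11.3 FPKM in si-SCR and 8.29 and 7.16 in si-circVAMP3. Its log2 fold change was -0.53 (SE 0.072, adjusted p = 0.00354, limma), called under all 15 alternatives. The scaffold AXIN2 had 1.55, 1.32 and 1.33 FPKM in si-SCR and 2.11 and 1.83 in si-circVAMP3 (log2 fold change 0.46, SE 0.12, adjusted p = 0.0282). The casein kinase CSNK1E rose by 0.37 (adjusted p = 0.00969). GSK3A (0.26) and CSNK1D (0.25) also rose and were named after their values were seen. Without si-circVAMP3 1 or 2 the 4 that rose lost their calls, with adjusted p up to 0.178 for AXIN2, 0.0787 for CSNK1E, 0.103 for GSK3A and 0.0969 for CSNK1D. Without si-SCR 2 AXIN2 was at 0.0901 and CSNK1D at 0.0602.

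Nuclear partners of beta-catenin had 4 of 15 genes called. LEF1, a DNA-binding partner of beta-catenin, had 10.1, 10.8 and 10.1 FPKM in si-SCR and 14.2 and 13.4 in si-circVAMP3 (log2 fold change 0.41, SE 0.057, adjusted p = 0.00360, limma). The co-activator BCL9L had 1.59, 1.43 and 1.24 FPKM in si-SCR and 2.27 and 2.34 in si-circVAMP3 (log2 fold change 0.67, SE 0.12, adjusted p = 0.00852). Of the Groucho-type co-repressors TLE4 rose by 0.49 (adjusted p = 0.00225) and TLE3, named after its value was seen, fell by 0.39 (adjusted p = 0.0169). BCL9L was not called without si-circVAMP3 1 or 2 (0.0592 and 0.069), nor was TLE3 (0.107 and 0.0811), which was at 0.0681 without si-SCR 2.

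Of 17 beta-catenin/TCF target genes 10 had a row and 9 were tested. TNFRSF19 fell, from 16.2, 16.0 and 15.4 FPKM in si-SCR to 9.75 and 8.18 in si-circVAMP3 (log2 fold change -0.82, SE 0.079, adjusted p = 0.00115, limma). AXIN2 and LEF1, which are in this list too, rose as given above, and the other 6 were not called. CCND1, the cyclin D1 gene, and MYC had log2 fold changes of 0.13 (adjusted p = 0.138) and 0.068 (adjusted p = 0.290) and were named after their values were seen. CCND1 was at 0.21 without si-circVAMP3 1 and at 0.051 without si-circVAMP3 2. The list median was 0.068.

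Myoblast contact and fusion receptors had a list median of -0.29. Of 13 genes tested 6 were called, all lower, against 14.7% called lower among all genes tested. The count was 5 without si-SCR 2 and 4 without si-circVAMP3 1 or 2. The adhesion molecule MCAM had 35.1, 38.3 and 35.9 FPKM in si-SCR and 21.0 and 21.0 in si-circVAMP3 (log2 fold change -0.79, SE 0.051, adjusted p = 0.000289, limma). Myomixer (MYMX), a small membrane protein of myoblast fusion, had 75.3, 73.2 and 71.7 FPKM in si-SCR and 51.5 and 45.5 in si-circVAMP3 (log2 fold change -0.60, SE 0.060, adjusted p = 0.00127). The integrin subunit ITGA4 fell by 0.38 (adjusted p = 0.00260). These 3 were called under all 15 alternatives. The others called were JAM2 (-0.37), JAM3 (-0.37) and NCAM1 (-0.29), named after their values were seen, and JAM3 was called under all 15 alternatives. NCAM1 lost its call without si-circVAMP3 1 or 2 (adjusted p = 0.0690 and 0.0777, limma), and JAM2 lost it there (0.0537 and 0.0953) and without si-SCR 2 (0.0533).

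Desmosome and tight junction genes were mostly unlisted, with 3 of 15 tested. Occludin (OCLN) rose by 0.28 on the log2 scale (adjusted p = 0.0397, limma). Claudin 4 (CLDN4) had 0.104, 0.0936 and 0.128 FPKM in si-SCR and 0.241 and 0.266 in si-circVAMP3, a log2 fold change of 0.76 (adjusted p = 0.0154) that was 0.18 with a pseudocount of 1. OCLN lost its call without any 1 library other than si-SCR 3, with adjusted p up to 0.175 without si-circVAMP3 2. CLDN4 lost it without si-SCR 2 and without si-circVAMP3 1 or 2, with adjusted p up to 0.0984.

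**Figure D4:**
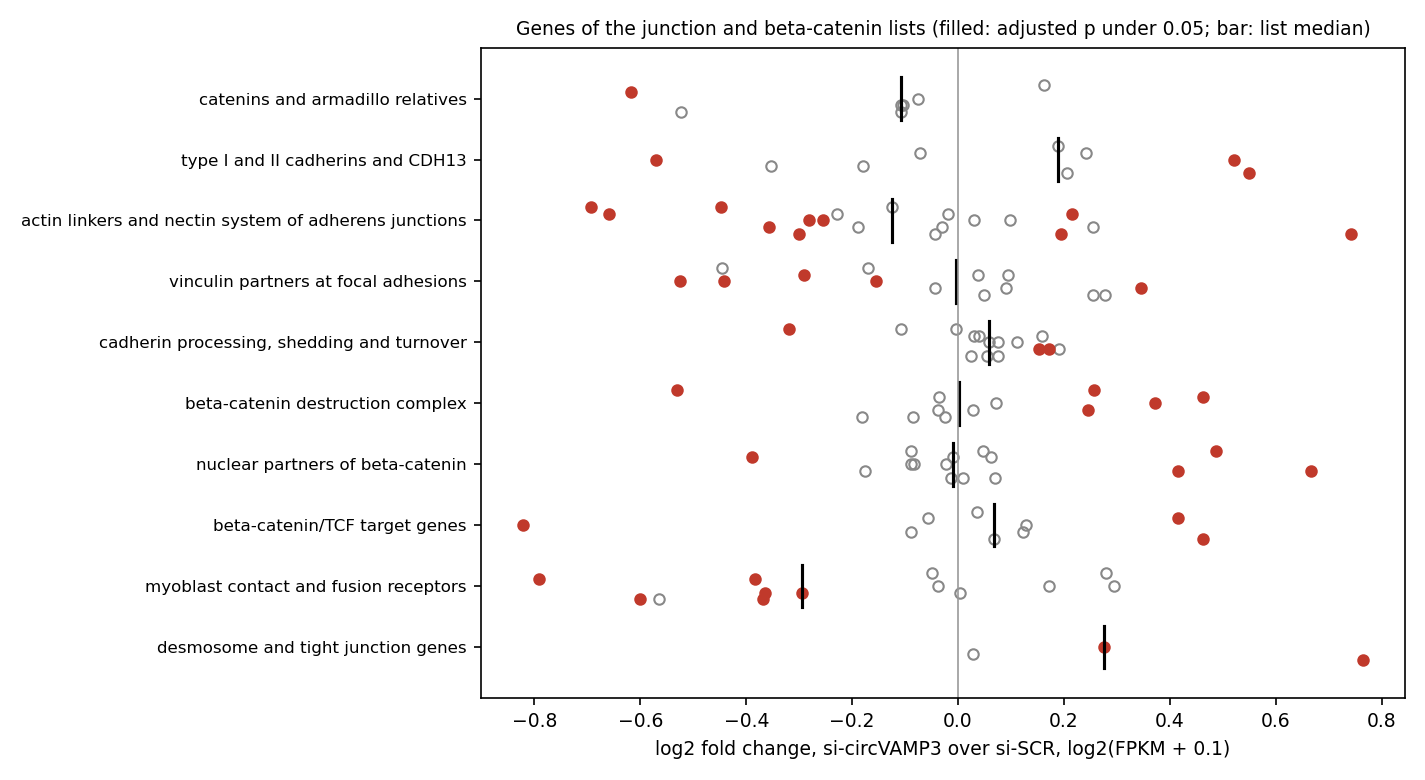
Log2 fold change, si-circVAMP3 over si-SCR on the log2(FPKM + 0.1) scale (horizontal axis), of the tested genes in each of 10 lists (vertical axis); filled circles have an adjusted p under 0.05 and vertical bars are list medians. The 6 called myoblast contact and fusion genes lie below 0, and the actin linkers hold calls on both sides (3 higher, 7 lower).

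**Figure D5:**
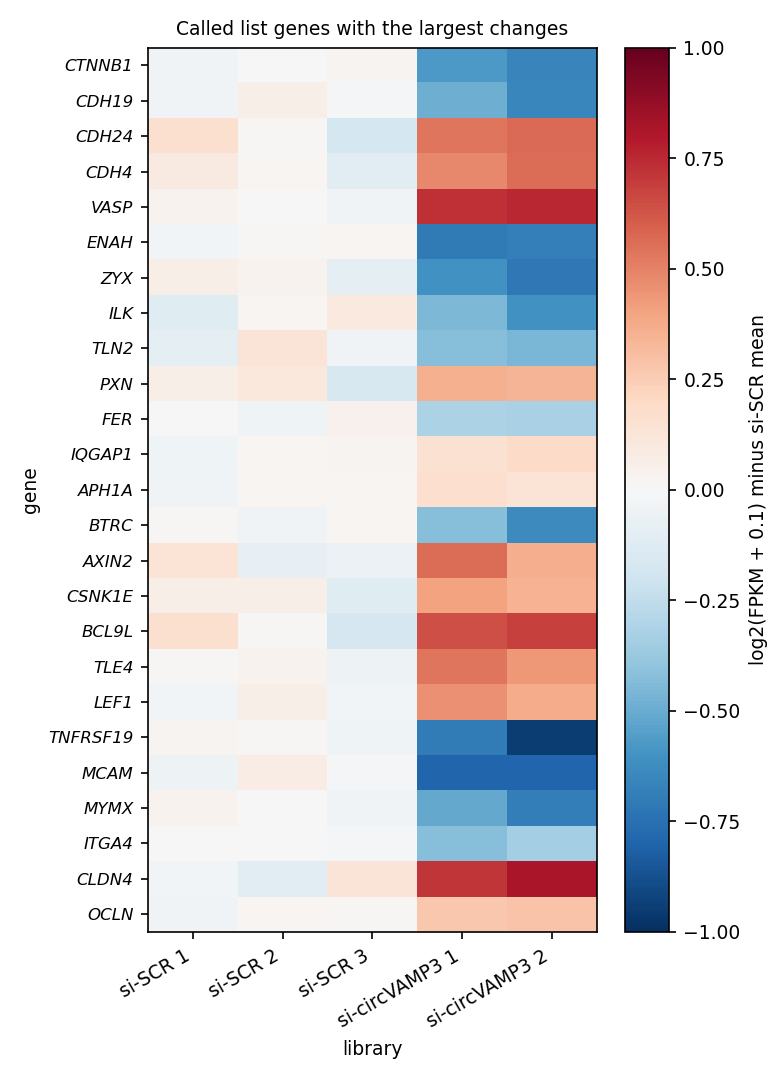
Log2(FPKM + 0.1) minus the si-SCR mean (colour) of the called genes with the largest changes in each list (rows) in the 5 libraries (columns). The genes were chosen for their fold changes, which run from -0.82 (TNFRSF19) to 0.76 (CLDN4).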

How the data were processed

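Polyadenylated RNA of 5 RH4 libraries was sequenced with a stranded protocol. Per the study's methods and submitters' notes, the authors demultiplexed with bcl2fastq 2.20.0.422, trimmed with Trimmomatic, aligned with STAR 2.5.2b to GRCh38, counted reads by strand with HTSeq and deposited FPKM calculated by edgeR after a filter on low counts. The authors tested counts with edgeR. Here the FPKM were tested. Symbols matched 13783 of 13822 gene IDs. Genes with a mean FPKM of at least 0.1 were tested on log2(FPKM + 0.1) with limma 3.58.1 in R 4.3.3, with an intensity trend and Benjamini-Hochberg adjustment, and called at an adjusted p under 0.05. Fold changes on this scale understate changes of low genes. Whole reads were recovered for 100% of genes, within 0.001 reads, from the shortest fitting exon length. The named genes were all junction genes, VAMP3, up to 3 called genes with the largest change per list, 5 nearest profiles and the highest marker of each marker list; others are said to be named after their values were seen. Members and lists were chosen with earlier results of these data known. Exact permutation tests used scipy 1.17.1. The fitting procedure was tested on simulated data. Alternatives changed the pseudocount, filter, scaling, variance model, replicate block or libraries; limma-voom on the recovered reads was added after seeing the data.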

Additional observations from a re-analysis of the deposited data

How the results depend on the processing

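CTNNB1 and CDH4 kept their direction and call in all 15 alternatives. Leaving out 1 library at a time gave 1267 to 4014 genes called, 455 to 1962 higher and 803 to 2052 lower, 2 to 4 junction genes called and 15 to 44 list genes called. Where si-circVAMP3 kept 1 library, it was assumed to vary like si-SCR. The log2 fold change ranged from -0.54 to -0.23 for CDH15 and from -0.24 to -0.14 for VCL. The labels do not say whether replicate numbers pair the libraries. Correlations of deviations between libraries of the same number were -0.088 and -0.016. They cannot decide it, since the 2 si-circVAMP3 libraries deviate from their mean by equal and opposite amounts. With the replicate block 2868 genes were called, 4 of them junction genes, with CDH15 at -0.54 (adjusted p = 0.0251) and VCL at -0.23 (0.0436). Among 59 named genes 10 lost their call with the block (CDH19, FER, IQGAP1, APH1A, OCLN, FOXO1, PDGFRB, RAPH1, GSK3A and EVL, adjusted p 0.0502 to 0.109). With the block 4 gained a call, CDH15, VCL, PKP1 (-0.72, adjusted p = 0.0149) and FGFR4 (-0.37, 0.0224). In that fit si-SCR 3 has a number of its own and adds nothing to the contrast. With limma-voom on recovered reads 4219 genes were called and VCL was at -0.19 (0.0278). The cause of the VCL call there was not tested. The cadherin sum reversed to -1.44 FPKM without si-SCR 3, with a range of -1.44 to 8.31 over libraries left out. Median centring turned the majority of calls, with 2022 higher and 1811 lower. CDH2 was not tested at a mean FPKM of at least 1. Among the other values, of named genes besides the 7 junction genes and of single lists, 743 kept their direction and call or stayed within 1.5 times, 92 lost and 9 gained a call, and 26 list counts moved. ACTN4, not called with all libraries, changed sign in 3 (0.041 and 0.018 without si-SCR 1 or 2, and 1.1e-05 without si-circVAMP3 2). The si-circVAMP3 group had 2 libraries.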
